A study of Mus musculus with 8 samples.

Results

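The genes described here are 9 leukocyte adhesion molecules and integrin subunits, chosen by name and not by their values, of the 54532 genes in the count table. They are the immunoglobulin-family ligands *Icam1*, *Icam2* and *Vcam1*, the selectins *Sele* (E-selectin) and *Selp* (P-selectin), the selectin ligand *Selplg* (PSGL-1), and the β2 integrin subunits *Itgal* (CD11a), *Itgb2* (CD18) and *Itgam* (CD11b). RNAseq was performed on FACS-sorted GFP+ (mG+) cells of female mice aged 8 months. All mice carried *Tie2e-cre* and the *mTmG* reporter, in which Cre switches a cell from membrane Tomato to membrane GFP. WT mice were TERT+/+ and EC-*Tert*-KO (KO) mice were TERTfl/fl. Cells came from subcutaneous adipose tissue (SAT) of mice on high-fat diet (HFD), and from SAT, visceral adipose tissue (VAT) and gastrocnemius muscle of mice on chow, and each of these 4 conditions was sequenced as 1 library of either genotype. GFP+ cells were taken as endothelial cells (EC) in the study, but the gate marks any cell in which the *Tie2e* promoter was ever active, and leukocytes can carry such a mark. Neither the number of mice behind a library nor whether the chow tissues shared mice is given in the sources used here.

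Leukocytes leave the blood in steps. Selectins on activated endothelium catch glycans carried by PSGL-1 and let the cell roll, after which chemokine signals switch integrins to their binding form. LFA-1 (*Itgal* with *Itgb2*) and Mac-1 (*Itgam* with *Itgb2*) then hold ICAM-1 and ICAM-2, while the α4 integrin VLA-4 holds VCAM-1. P-selectin is stored in endothelial and platelet granules, whereas E-selectin and VCAM-1 are made on demand after TNF or IL-1 and ICAM-1 is raised by the same signals from a basal level. ICAM-2 is a constitutive endothelial ligand. CD11a is carried by nearly all leukocytes, and CD11b mainly by neutrophils, monocytes and macrophages.

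The 9 genes lie on 7 mouse chromosomes in GRCm38, the build of the count table, and each position is the same in GENCODE M21. *Sele* (ENSMUSG00000026582, chromosome 1, positions 164048234 to 164057677) and *Selp* (ENSMUSG00000026580, positions 164115264 to 164150026) are neighbours on the same strand, 57.6 kb apart. *Itgal* (ENSMUSG00000030830, chromosome 7, positions 127296260 to 127335138) and *Itgam* (ENSMUSG00000030786, positions 128062640 to 128118491) share a chromosome at a distance of 728 kb. *Icam1* (ENSMUSG00000037405) lies on chromosome 9 at 21015985 to 21028817, *Vcam1* (ENSMUSG00000027962) on chromosome 3 at 116109949 to 116129688, and *Icam2* (ENSMUSG00000001029) on chromosome 11 at 106377656 to 106388075. *Selplg* (ENSMUSG00000048163) lies on chromosome 5 at 113818536 to 113832644 and *Itgb2* (ENSMUSG00000000290) on chromosome 10 at 77530252 to 77565708.

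The RefSeq promoter table for GRCm38.p6 held an entry for 4 of the 9 genes, and all 4 are shown because they include the 3 genes with the widest range of levels, *Selp*, *Sele* and *Itgam*. Each line is the 250 bases before the RefSeq start, 5′ to 3′ on the gene's own strand. Capitals mark matches, on either strand, to GGNNNTTCC (a κB-type element), GAGGAA (a PU.1-type element) or TATAA (the TATA-type element), which were chosen after the sequences were seen.
Icam1, chr9:21015690-21015939, + strand: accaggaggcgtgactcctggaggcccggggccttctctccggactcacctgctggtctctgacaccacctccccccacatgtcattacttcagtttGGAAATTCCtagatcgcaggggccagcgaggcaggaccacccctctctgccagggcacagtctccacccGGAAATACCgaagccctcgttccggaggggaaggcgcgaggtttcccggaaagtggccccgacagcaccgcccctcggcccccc
Sele, chr1:164047984-164048233, + strand: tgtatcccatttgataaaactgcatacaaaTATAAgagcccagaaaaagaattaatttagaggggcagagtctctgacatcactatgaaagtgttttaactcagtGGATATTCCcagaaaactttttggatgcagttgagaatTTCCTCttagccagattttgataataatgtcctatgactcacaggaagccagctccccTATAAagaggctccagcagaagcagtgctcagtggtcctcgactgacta
Selp, chr1:164115014-164115263, + strand: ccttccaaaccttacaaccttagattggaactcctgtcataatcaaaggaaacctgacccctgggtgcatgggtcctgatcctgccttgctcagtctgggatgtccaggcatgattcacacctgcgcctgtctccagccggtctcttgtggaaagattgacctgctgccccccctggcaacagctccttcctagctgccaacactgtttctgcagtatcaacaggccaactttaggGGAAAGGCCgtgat
Itgam, chr7:128062390-128062639, + strand: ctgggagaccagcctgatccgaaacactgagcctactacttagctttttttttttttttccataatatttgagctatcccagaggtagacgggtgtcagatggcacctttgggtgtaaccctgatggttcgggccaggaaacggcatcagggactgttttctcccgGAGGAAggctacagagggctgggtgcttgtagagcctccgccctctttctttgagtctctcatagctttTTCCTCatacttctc

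*Sele* held GGATATTCC 145 bases before its start and TATAA at 49 and 220 bases, and the opposite strand of GAGGAA at 107 bases. *Icam1* held GGAAATTCC at 153 bases, which reads as the κB-type element on both strands, and a second match at 84 bases. *Selp* held a κB-type match on the opposite strand at 14 bases. *Itgam* held GAGGAA at 84 bases and its opposite strand at 15 bases, and no match to the other elements. Of 32851 promoters of this length, 15.7% held the κB-type, 23.3% the PU.1-type and 22.8% the TATA-type element. These matches describe letters in the window and were not tested as binding sites.

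Library totals ranged from 6214269 counts (WT, HFD SAT) to 18855772 (WT, chow SAT), and 16971 genes averaging 10 counts or more were tested. All 9 genes were among them, with 32 counts (*Sele*, WT, chow SAT) as the lowest value in any library. *Tert*, counted over the whole gene and not only its floxed part, had 114 counts (WT) and 0 (KO) in HFD SAT, 70 and 11 in chow SAT, and 24 and 7 in muscle. In VAT it had 3 counts with the WT label and 9 with the EC-*Tert*-KO label, so *Tert* does not show the labelled genotype there, and every VAT direction below rests on the label. All 15 endothelial markers were detected in every library, with a summed level of 387 to 3308 CPM (counts relative to the TMM-scaled library size). Pan-leukocyte markers summed to 5006 to 11317 CPM, and *Ptprc* (CD45) alone to 1229 to 2550 CPM, above *Pecam1* (145 to 553 CPM) in every library. In bulk RNA, more cells of a type and more RNA per cell cannot be told apart, and the cells that carried the reads of a gene are not known. A ratio to endothelial markers is therefore not a level per endothelial cell.

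**Figure D1:**
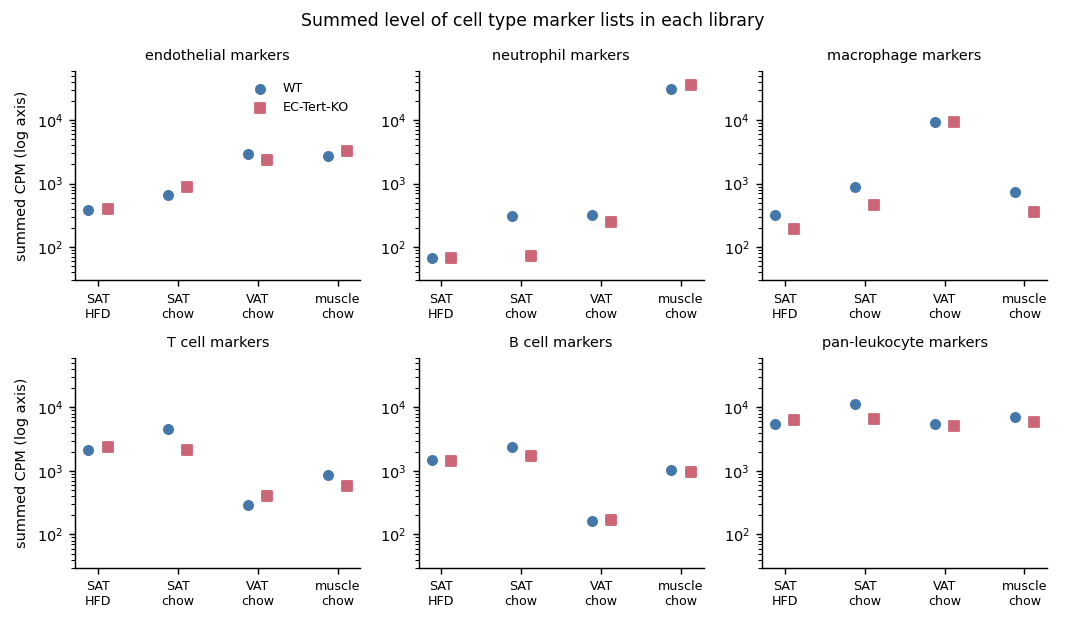
Summed CPM (log axis) of marker lists for 6 cell classes in each of the 8 libraries, by tissue and diet, with circles for WT and squares for EC-Tert-KO as labelled. Neutrophil markers stand at 30749 and 35143 CPM in muscle and at 68.6 to 318 in the other libraries, and macrophage markers at 9328 and 9198 CPM in VAT.

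The kind of leukocyte signal differed by tissue. In VAT over chow SAT, 10 of 10 macrophage markers were called higher, 9 of 10 T cell markers and 8 of 8 B cell markers were called lower, and 1 of 12 neutrophil markers was called. Of all genes tested, 3.13% were called higher and 1.87% lower there (edgeR). In muscle over chow SAT, 12 of 12 neutrophil markers were called higher and no macrophage marker was called, where 1.1% of all genes were called higher and 0.165% lower. *Ly6g*, *Mpo* and *Elane* were at 0 in both HFD SAT libraries and *Elane* in the VAT library labelled KO, while no macrophage, T cell, B cell or endothelial marker was at 0 in any library. Endothelial markers were called higher for 9 of 15 in VAT and 7 of 15 in muscle, both against chow SAT. These lists move with the tissue results below, and their part in them was not tested.

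Per base of gene length, *Itgb2* was the highest of the 9 genes in every library, at 106 to 248 RPKM (CPM per kilobase of the gene length in the table). *Selplg* followed at 54.7 to 134 RPKM and *Itgal* at 53.6 to 116 RPKM. *Icam1* stood at 22.4 to 119 RPKM and was second only in the VAT libraries. *Icam2* held 15.2 to 38.7 RPKM, a narrow band. *Vcam1* (1.67 to 17.7 RPKM), *Sele* (0.680 to 17.7), *Selp* (1.36 to 42.6) and *Itgam* (1.48 to 34.5) spanned the widest ranges. The ratio of highest to lowest library was 31.3 for *Selp*, 26.1 for *Sele*, 23.4 for *Itgam* and 10.6 for *Vcam1*, against 2.17 to 2.55 for *Itgal*, *Itgb2*, *Selplg* and *Icam2*.

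**Figure D2:**
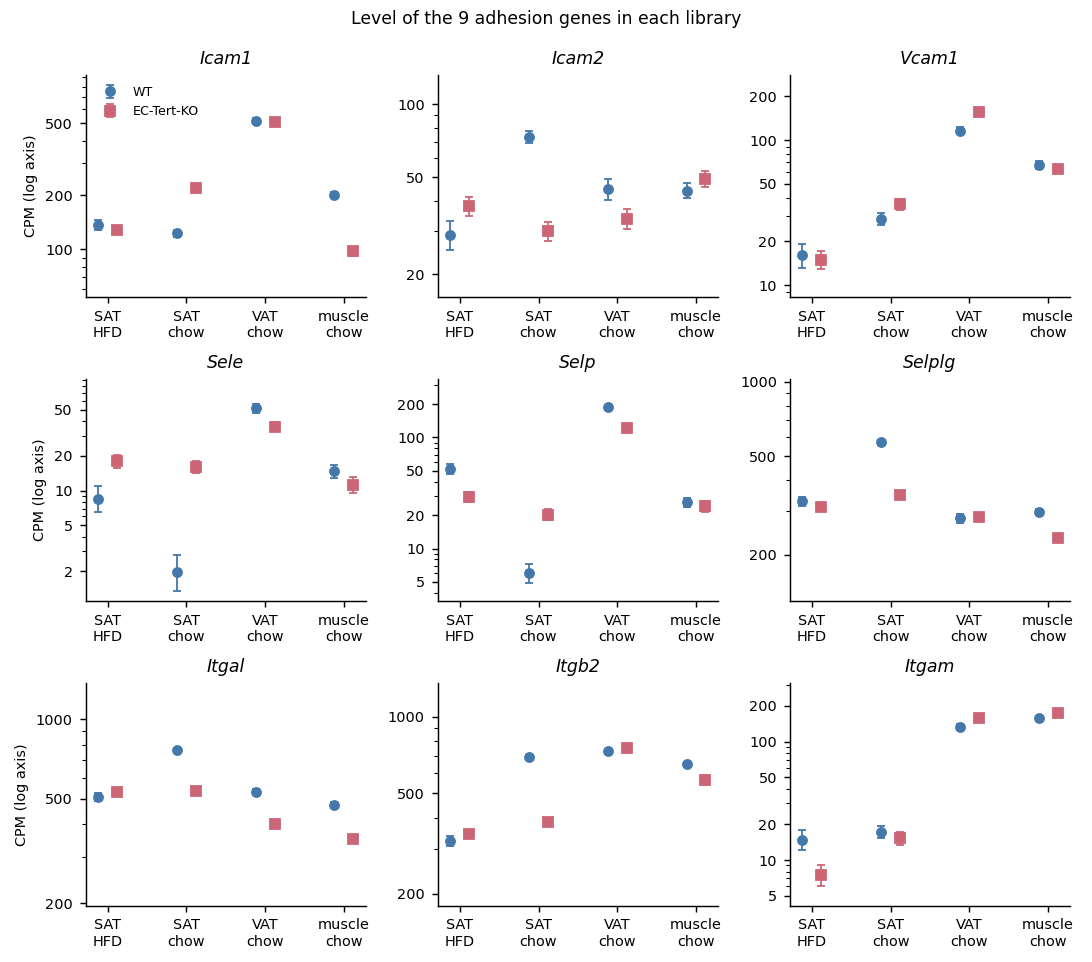
CPM (log axis) of each of the 9 genes in the 8 libraries, by tissue and diet, with circles for WT, squares for EC-Tert-KO as labelled, and bars for the exact Poisson 95% interval, which covers counting error only. Itgam lies between 7.41 and 17.3 CPM in the 4 SAT libraries and between 134 and 173 CPM in VAT and muscle, with no overlap.

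The first comparison asked whether these genes differ among the 4 tissue and diet conditions. edgeR's quasi-likelihood test, with genotype in the model, used the WT and KO library of a condition as its 2 libraries. Its p-values therefore rest on how the KO over WT difference varied among the 4 conditions, with 3 residual degrees of freedom. The test also draws on the variance of other genes. No condition had 2 libraries of the same genotype, so spread between such libraries was not measured. *Itgam* (adjusted p = 0.00232), *Vcam1* (adjusted p = 0.00419) and *Selp* (adjusted p = 0.0249) were called, 3 of the 9 genes, where 7.93% of all genes tested were called (19.6% with DESeq2). *Icam1* missed the threshold (adjusted p = 0.0553, edgeR), and the other 5 had adjusted p-values of 0.229 to 0.797 (edgeR). The call for *Selp* rested on both VAT libraries: without the WT library its adjusted p was 0.139, and without the library labelled EC-*Tert*-KO it was 0.0840. *Icam1* was called by DESeq2 (adjusted p = 7.29e-05). With a library left out, a condition keeps 1 library, and the outcome turned on which library it was. *Icam1* passed without either chow SAT library or the muscle WT library, and *Itgb2* without either chow SAT library. *Sele* passed without the chow SAT KO library. *Icam1* and *Sele* were farthest from the threshold without the VAT WT library, and *Itgb2* without the VAT library labelled KO.

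*Itgam*, the α subunit of Mac-1, had 14.9 CPM (WT) and 7.41 CPM (KO) for HFD SAT, and 17.3 and 15.3 CPM for chow SAT. In VAT it had 134 CPM in the library labelled WT and 156 in the one labelled KO, and in muscle 159 and 173 CPM. It was higher in VAT than in chow SAT by 3.16 on the log2 scale (SE 0.39, adjusted p = 0.00756, edgeR), or 8.96-fold, and higher in muscle than in chow SAT by 3.36 (SE 0.39, adjusted p = 0.0119), or 10.2-fold. These contrasts share the chow SAT libraries. Without the muscle KO library the second call was lost (adjusted p = 0.0648), while the fold stayed at 3.19 on the log2 scale. Muscle and VAT differed by 0.19 (SE 0.35, adjusted p = 0.944). The 9328 and 9198 CPM of macrophage markers in VAT and the 30749 and 35143 CPM of neutrophil markers in muscle stood beside these levels. Monocyte markers summed to 315 to 888 CPM in the SAT libraries and to 1051 and 1020 in VAT. In muscle they summed to 2747 and 3454 CPM, of which *Chil3* gave 1630 and 2329. The part of these cells in the *Itgam* levels was not tested.

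*Vcam1*, the VLA-4 ligand, had 16.0 and 14.8 CPM (WT and KO) for HFD SAT, 28.5 and 36.0 for chow SAT, 116 and 157 for VAT, and 67.4 and 63.0 for muscle. The order of condition means was VAT, muscle, chow SAT and HFD SAT, and no neighbours in this order overlapped. It was higher in VAT than in chow SAT by 2.08 on the log2 scale (SE 0.31, adjusted p = 0.0134, edgeR), a call lost without the VAT WT library (adjusted p = 0.0688) or the VAT library labelled KO (adjusted p = 0.0892). In muscle over chow SAT the difference was 1.02 (SE 0.31, adjusted p = 0.197, or 0.0280 with DESeq2). Per summed endothelial marker count, *Vcam1* was at 0.0375 to 0.0437 in SAT and at 0.0247 and 0.0190 in muscle, and on this scale the VAT library labelled WT (0.0404) stood inside the SAT range and the one labelled KO (0.0675) above it.

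*Selp*, the granule-stored selectin, had 51.8 (WT) and 29.0 CPM (KO) for HFD SAT, 6.0 and 20.2 for chow SAT, 188 and 122 for VAT, and 26.1 and 24.0 for muscle. The condition means, from highest to lowest, were in VAT, HFD SAT, muscle and chow SAT, with no overlap between neighbours. It was 11.8-fold higher in VAT than in chow SAT (log2 3.56, SE 0.64, adjusted p = 0.0228, edgeR). The value depended on the chow SAT libraries, with 2.81 without WT and 4.92 without KO on the log2 scale. It was 3.31 (adjusted p = 0.0956) without the VAT WT library and 4.23 (adjusted p = 0.0699) without the VAT library labelled KO. Muscle was lower than VAT by 2.63 on the log2 scale without passing the threshold (SE 0.60, adjusted p = 0.0748), and passed it without the chow SAT WT library (−2.63, adjusted p = 0.00324) or the chow SAT KO library (−2.59, adjusted p = 0.00404). Without the latter, muscle over chow SAT was 2.33 (adjusted p = 0.0162). *Gm16587* and *Gm16548* overlap *Selp* on the other strand. They had at most 56 and 60 counts in a library, where *Selp* had 97 to 1692.

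*Sele*, the inducible endothelial selectin, had 8.53 and 17.9 CPM (WT and KO) for HFD SAT, 1.98 and 16.1 for chow SAT, 51.6 and 35.6 for VAT, and 14.8 and 11.3 for muscle. VAT had the highest level and did not overlap the others, while HFD SAT, muscle and chow SAT overlapped one another. The VAT over chow SAT difference was 2.61 on the log2 scale (SE 0.87, adjusted p = 0.141, edgeR). It was 4.45 (adjusted p = 0.0109) without the chow SAT KO library but 1.62 (adjusted p = 0.221) without the chow SAT WT library. Without the VAT libraries it was 1.93 (WT, adjusted p = 0.590) and 3.71 (labelled KO, adjusted p = 0.167), and with DESeq2 it passed (adjusted p = 0.0107).

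*Icam1*, the main ligand of LFA-1 and Mac-1, had 136 and 128 CPM (WT and KO) for HFD SAT, 123 and 219 for chow SAT, 518 and 512 for VAT, and 201 and 97.6 for muscle. In CPM, VAT stood above the rest, and the other 3 conditions overlapped. The VAT over chow SAT difference was 1.58 (SE 0.45, adjusted p = 0.0937 with edgeR and 0.00285 with DESeq2), and muscle over VAT was −1.80 (SE 0.45, adjusted p = 0.102 with edgeR and 0.00163 with DESeq2). Without the chow SAT KO library these became 2.27 and −1.85, and without the chow SAT WT library muscle over VAT was −1.90. The muscle libraries moved muscle over VAT most, to −2.53 without WT and −1.25 without KO. For VAT over chow SAT the settings tried gave 1.22 to 2.27. Its adjusted p was largest when the VAT WT library was left out. Per summed endothelial marker count, *Icam1* was at 0.353 (WT) and 0.325 (KO) in HFD SAT and 0.188 and 0.246 in chow SAT. On this scale it was at 0.180 and 0.220 in VAT, which overlapped chow SAT, and at 0.0738 and 0.0295 in muscle. HFD SAT, not VAT, was then the highest.

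*Icam2* had 28.9 and 38.2 CPM (WT and KO) for HFD SAT, 73.7 and 30.1 for chow SAT, 44.7 and 33.8 for VAT, and 44.2 and 49.5 for muscle. All neighbours in the order of condition means overlapped, and the largest contrast was −0.55 on the log2 scale (HFD SAT over chow SAT, SE 0.45, adjusted p = 0.728, edgeR). Per summed endothelial marker count, however, *Icam2* was at 0.0339 to 0.113 in the SAT libraries and at 0.0145 to 0.0162 in VAT and muscle, with no overlap. The endothelial marker sum itself was 387 to 890 CPM in SAT and 2326 to 3308 CPM in VAT and muscle, while *Icam2* CPM overlapped. The separation therefore lies in the marker sum. Which cells carried the *Icam2* reads, and the level of *Icam2* per endothelial cell, were not tested.

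*Selplg*, the leukocyte counter-receptor of the selectins, had 329 and 312 CPM (WT and KO) for HFD SAT, 571 and 348 for chow SAT, 281 and 285 for VAT, and 298 and 234 for muscle. *Itgal* followed a like order, with 507 and 531 CPM for HFD SAT, 764 and 532 for chow SAT, 528 and 401 for VAT, and 474 and 352 for muscle. Both had their highest level in the WT library of chow SAT, which also held the highest pan-leukocyte (11317 CPM) and T cell (4576 CPM) marker sums. *Itgb2*, the β subunit shared by LFA-1 and Mac-1, had 323 and 343 CPM for HFD SAT, 692 and 384 for chow SAT, 732 and 756 for VAT, and 650 and 565 for muscle. VAT stood above muscle without overlap, and the widely spread chow SAT libraries overlapped muscle. None of these 3 genes was called in any condition contrast (adjusted p of 0.308 to 0.977 for *Selplg*, 0.477 to 0.950 for *Itgal* and 0.498 to 0.928 for *Itgb2*, edgeR). *Selplg* passed without the chow SAT KO library in VAT over chow SAT (−0.94, adjusted p = 0.0395) and muscle over chow SAT (−1.04, adjusted p = 0.0440), and *Itgb2* passed in VAT over chow SAT without the chow SAT WT library (1.11, adjusted p = 0.0468).

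**Figure D3:**
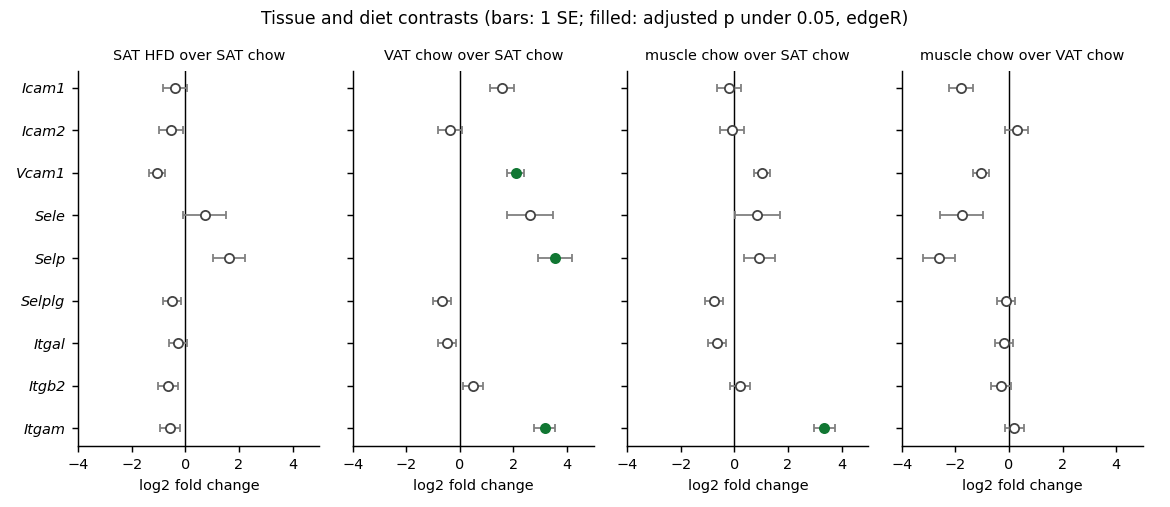
Log2 fold change of the 9 genes in 4 contrasts of tissue and diet, with bars for 1 SE and filled points for an adjusted p under 0.05 (edgeR). Filled points are Vcam1, Selp and Itgam in VAT over chow SAT and Itgam in muscle over chow SAT.

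Counted by contrast, VAT over chow SAT called 3 of the 9 genes, all higher, where 3.13% of genes tested were called higher and 1.87% lower (DESeq2 called 5 of 9 and 14.3% of genes). The median log2 difference of the 9 genes was 1.58, against −0.13 for all genes tested. Muscle over chow SAT called 1 of 9, against 1.27% of all genes (1.1% higher and 0.165% lower, or 2 of 9 and 7.34% with DESeq2), with medians of 0.20 and −0.11. Muscle over VAT called 0 of 9 with edgeR, against 2.02% of all genes (0.99% higher and 1.03% lower), with 3 (*Icam1*, *Vcam1* and *Selp*) at an unadjusted p under 0.05, and the same number called with DESeq2, which called 8.36% of genes. The diet contrast, HFD SAT over chow SAT, called 0 of 9 and 0% of all genes with edgeR, and 0 of 9 and 1.48% with DESeq2. Here *Vcam1* was lower by 1.06 (SE 0.31, unadjusted p = 0.00925, adjusted p = 0.463) and *Selp* higher by 1.62 (SE 0.60, unadjusted p = 0.0284, adjusted p = 0.511), and the median of all genes was −0.32. Without the chow SAT KO library, *Selp* was higher on HFD by 2.96 (adjusted p = 0.0415), and without the chow SAT WT library by 0.84 (adjusted p = 0.550). Diet cannot be told apart from anything else that differed between these SAT collections.

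The second comparison asked whether loss of *Tert* changed these genes. Across the 4 pairs, with tissue and diet as a block, 0 of the 9 genes were called by edgeR or by DESeq2, and none had an unadjusted p under 0.05, where edgeR called 0.00589% (1 gene) and DESeq2 0.121% of all genes. The log2 KO over WT was 0.70 for *Sele* (SE 0.61, adjusted p = 0.9996, but 0.012 without the chow SAT pair), −0.32 for *Itgal* (SE 0.24) and between −0.28 and 0.14 for the other 7. The 9 genes had a median of −0.19, with 2 above 0 and 7 below, against a median of 0.03 for all genes.

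Within a pair each genotype has 1 library, so the values below have no replicate check, describe those libraries, and carry an exact binomial 95% interval for counting error only. In chow SAT, 3 of the 9 genes differed by at least 2-fold, where 45.2% of the genes averaging 10 counts or more in that pair did (26.1% higher and 19.1% lower in KO). *Sele* was higher in KO by 3.0 on the log2 scale (95% interval 2.49 to 3.60, 32 against 259 counts) and *Selp* by 1.74 (1.42 to 2.09, 97 against 325 counts). *Icam2* was lower in KO by 1.29 (1191 against 486 counts), and by 0.77 once the trend of fold change on gene length was removed. That trend was the strongest of the 4 pairs (Spearman correlation 0.237 over genes), and with it removed *Sele* stood at 3.35 and *Selp* at 1.83. *Icam1* was higher in KO by 0.83 (0.75 to 0.91), and past 2-fold with library totals (1.06) or upper quartile scaling (1.02). The leukocyte genes *Selplg* (−0.71), *Itgal* (−0.52) and *Itgb2* (−0.85) were lower, beside a pan-leukocyte marker sum of 11317 CPM in WT and 6495 in KO. *Ptprc*, a member of that list, went the other way, with 2146 CPM in WT and 2550 in KO. The gene length trend of this pair was not removed from these leukocyte values. Stromal markers summed to 1035 CPM in WT and 3730 in KO (9 of 10 at least 2-fold higher), mural markers to 76.2 and 243 CPM (6 of 10) and endothelial markers to 653 and 890 CPM (3 of 15), and their part in these differences was not tested.

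In HFD SAT, 2 of 9 genes passed 2-fold, against 34.5% of all genes (18.1% higher and 16.3% lower). *Sele* was higher in KO by 1.07 (0.65 to 1.51, 59 against 232 counts) and *Itgam* lower by 1.0 (103 against 96 counts in a deeper library), which fell below 2-fold with library totals (−0.94) or a prior count of 5 (−0.96). *Selp* was lower in KO by 0.84 (358 against 375 counts), the opposite direction to chow SAT. In VAT no gene of the 9 passed 2-fold, against 15% of all genes (8.21% higher and 6.81% lower), and the values of the library labelled EC-*Tert*-KO were −0.62 for *Selp* (−0.72 to −0.53), −0.54 for *Sele* (−0.72 to −0.35) and 0.44 for *Vcam1* (0.33 to 0.54). In muscle 1 of 9 passed, against 14.9% of all genes (8.76% higher and 6.15% lower). *Icam1* was lower in KO by 1.04 (3279 against 1325 counts), or by 0.88 with library totals. *Itgal* (−0.43), *Sele* (−0.39) and *Selplg* (−0.35) were also lower in the muscle KO library.

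**Figure D4:**
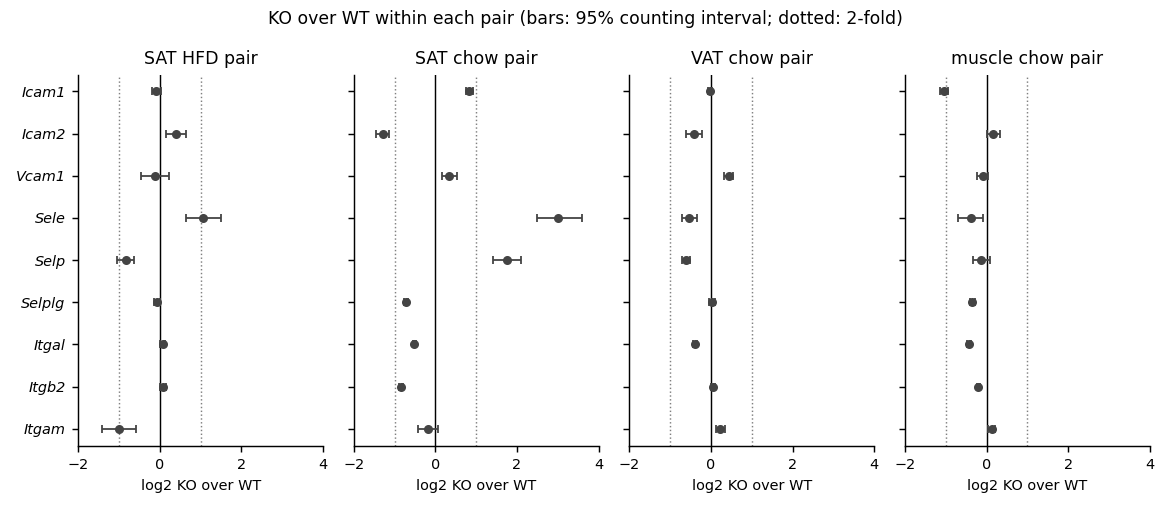
Log2 KO over WT of the 9 genes within each of the 4 pairs, with bars for the 95% counting interval and dotted lines at 2-fold. Sele lies at 3.0 in the chow SAT pair and at 1.07 in the HFD SAT pair, but at −0.54 and −0.39 in VAT and muscle.

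By label and TMM scaling, *Icam1*, *Selp*, *Selplg* and *Itgal* were each lower in KO in 3 pairs and higher in 1, and the other 5 were split 2 against 2. For *Selplg* the exception was VAT, at 0.02 with an interval of −0.05 to 0.09 that spans 0, and with DESeq2 size factors (−0.02) or upper quartile scaling (−0.04) it was lower in all 4 pairs. Other splits changed with scaling too. With library totals, *Itgam* in chow SAT turned from −0.18 to 0.05 and *Selp* in muscle from −0.13 to 0.04. The medians of the 9 genes within the pairs were −0.07 (HFD SAT), −0.18 (chow SAT), −0.02 (VAT) and −0.20 (muscle), against 0.06, 0.00, 0.01 and 0.00 for all genes.

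Ratios within a library do not depend on scaling. *Itgam* per *Itgal*, which weighs the Mac-1 against the LFA-1 α subunit transcript, was 0.0140 to 0.0294 in the 4 SAT libraries, 0.253 and 0.390 in VAT, and 0.335 and 0.492 in muscle. The shared subunit *Itgb2* per *Ptprc* was 0.151 to 0.323 in SAT, 0.501 and 0.615 in VAT, and 0.435 and 0.437 in muscle. *Itgal* per *Ptprc* was 0.209 to 0.362 over all 8 libraries and *Selplg* per *Ptprc* 0.137 to 0.266, and both were lowest in the KO library of chow SAT, where *Ptprc* itself was at its highest. In the chow SAT pair, KO over WT also rose with gene length (Spearman correlation 0.237 over genes). *Ptprc* is a longer gene than *Itgal*, *Selplg* and *Itgb2*, and that trend was not removed from these ratios.

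The order of the endothelial selectins changed when they were set against the endothelial markers. *Selp* per summed endothelial marker count was 0.134 (WT) and 0.0732 (KO) in HFD SAT, 0.00919 and 0.0226 in chow SAT, 0.0654 and 0.0524 in VAT, and 0.00958 and 0.00724 in muscle. On this scale HFD SAT, not VAT, held the highest *Selp*. *Sele* per endothelial marker count ran from 0.00303 (chow SAT, WT) to 0.0453 (HFD SAT, KO), and muscle (0.00542 and 0.00341) lay below VAT (0.0180 and 0.0153). *Selp* per *Sele* was 6.07 (WT) and 1.62 (KO) for HFD SAT, 3.03 and 1.25 for chow SAT, 3.64 and 3.42 for VAT, and 1.77 and 2.12 for muscle. P-selectin can also come from platelets and megakaryocytes, whose 10 markers summed to 10.1 to 43.2 CPM outside VAT and to 184 and 295 CPM in VAT, of which *Pf4* gave 167 and 273. *Gp1bb* was at 0 in every library and *Gp6* at 0 in 7 of 8. The VAT sum was therefore almost all *Pf4*, and the source of the *Selp* reads was not tested.

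**Figure D5:**
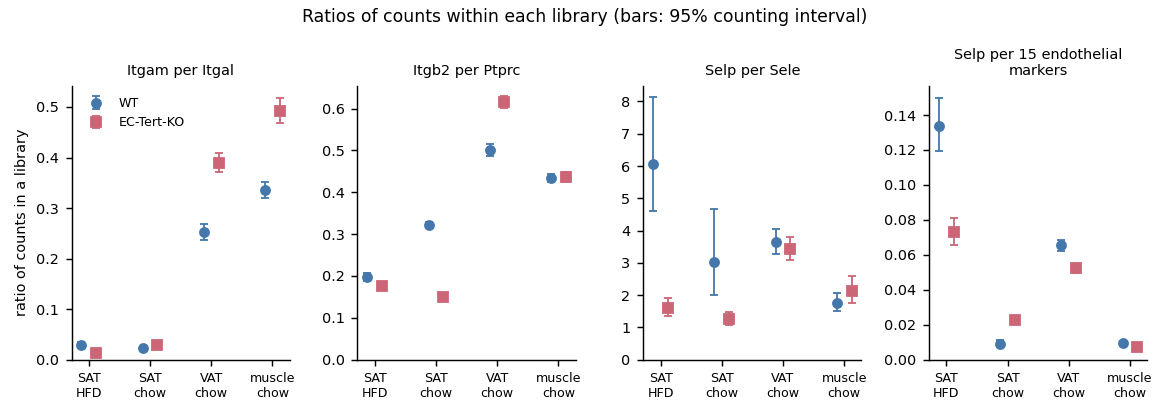
Ratios of counts within each of the 8 libraries, with bars for the 95% counting interval, circles for WT and squares for EC-Tert-KO as labelled. Itgam per Itgal is at most 0.0294 in SAT and at least 0.253 in VAT and muscle, while Selp per endothelial marker is highest in HFD SAT at 0.134 and 0.0732.

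Other genes of the adhesion cascade were counted from fixed lists. Among the selectin ligands and the enzymes that make them, *Cd44* (2.03, adjusted p = 0.0327) and *Emcn* (1.91, adjusted p = 0.0204) were called higher in VAT than in chow SAT, and *Glycam1*, a mucin-like glycoprotein, was called lower (edgeR). *Glycam1* had 114 and 32.4 CPM in chow SAT and 0.111 and 0 in VAT. Of 10 other integrin subunits, *Itgae*, the αE subunit of intraepithelial T cells, was called lower in VAT than in chow SAT (−4.01, adjusted p = 0.0047). *Itga4*, the α subunit of the VCAM-1 receptor, was at 188 to 568 CPM and was not called.

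Of 11 genes of integrin activation, *Skap1* (−2.23, adjusted p = 0.0194) and *Rasgrp2* (−1.62, adjusted p = 0.0371) were lower in VAT. Of 13 tested endothelial and junctional adhesion molecules, *Jam2* (2.29, adjusted p = 0.0138), *Esam* (1.98, adjusted p = 0.0137) and *Cdh5* (VE-cadherin, 1.97, adjusted p = 0.0246) were higher in VAT than in chow SAT. The same 3 were higher in muscle (2.48, 1.78 and 2.39, adjusted p of 0.0233, 0.0371 and 0.0295, edgeR), along with *Podxl* (2.93, adjusted p = 0.0295) and *Emcn* (1.84, adjusted p = 0.0483), while *Skap1* was lower (−2.06, adjusted p = 0.0492). Of 12 cytokines and receptors that induce endothelial ligands, *Il1b* (2.63, adjusted p = 0.0280), *Tnfrsf1a* (1.88, adjusted p = 0.0239) and *Tnf* (1.41, adjusted p = 0.0487) were higher in VAT than in chow SAT. Muscle over VAT called *Glycam1* and *Itgae* (2.21, adjusted p = 0.0323) higher and *Tnf* (−1.64, adjusted p = 0.0498) lower. KO over WT and HFD SAT over chow SAT called no gene of these 5 lists with edgeR. The median log2 difference of VAT over chow SAT was 1.49 for the cytokines and receptors, 0.94 for the junctional molecules, 0.73 for the other integrins and −0.44 for integrin activation, beside −0.13 for all genes and 5% of all genes called.

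Over the 8 libraries, log2 CPM of the 9 genes formed groups, given as a description because libraries of a pair share tissue and diet. *Selplg* and *Itgal* had a Pearson correlation of 0.92, *Vcam1* and *Itgam* of 0.90, and *Sele* and *Selp* of 0.88. *Itgb2* went with *Vcam1* (0.83) and *Itgam* (0.76) rather than with *Itgal* (−0.06), its LFA-1 partner. For each gene below, the nearest gene was picked as the largest of all correlations over 8 libraries. Such picking alone gives high values, and they were not tested. The nearest gene of all tested was *Rasgrp4* for *Itgam* (0.997), *Abcc1* for *Icam1* (0.987), *Sowahc* for *Vcam1* (0.993), *Gm38357* for *Sele* (0.990), *Gm14636* for *Selp* (0.987), *U2af2* for *Selplg* (0.985), *Tcof1* for *Itgal* (0.955), *Rac1* for *Itgb2* (0.986) and *Abi3* for *Icam2* (0.961).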

How the data were processed

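The authors deposited raw counts per Ensembl gene for the 8 libraries, with the gene length. Per the labels, RNA was isolated on columns and made into libraries with a SMARTER mRNA kit, while the study's methods name Trizol. The submitters' processing notes name HISAT2 2.0.5 and GRCm38 (mm10). The counting program and its use of strand are not given in the sources used here, so reads shared with antisense genes over *Icam1*, *Vcam1* and *Selp*, or with *Gm49368* over *Itgam*, cannot be separated.

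Libraries were scaled by TMM in edgeR 4.0.16 (R 4.3.3). Genes averaging 10 counts or more were tested by edgeR's robust quasi-likelihood test, with Benjamini-Hochberg adjustment over all 16971 genes at 0.05, in 1 model with condition and genotype. SE is that of the log2 fold change. Within a pair, log2 ratios used a prior count of 0.5, and the exact binomial interval covers counting error only. Pairs were given no p-value of their own. The pairing follows tissue and diet. WT and KO libraries deviated together with a correlation of 0.253 (HFD SAT), 0.561 (VAT) and 0.517 (muscle), against −0.333 to 0.176 between pairs. In chow SAT the correlation was 0.057, inside the range between pairs. On this measure its WT and KO libraries were no more alike than libraries of different pairs, and every contrast over chow SAT uses them. DESeq2 1.42.0, other scalings, filters and left-out libraries were tried; a condition then left with 1 library was assumed to vary like the others. Procedures were tested on simulated data. The 9 genes were named in every comparison, with *Ptprc*, *Pecam1* and *Tert* for reference, the gene correlating best with each, and up to 3 called genes per list. A gene of the selectin ligand list is not reported here. Members, lists and tests were chosen with earlier results of these data known.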

Additional observations from a re-analysis of the deposited data

Results flagged for a closer look

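With 1 library per genotype, no group was large enough to look for outlying libraries. The KO over WT difference of 2 genes went in opposite directions in different pairs, past 1.5-fold each way. *Icam1* was higher in KO by 0.83 in chow SAT and lower by 1.04 in muscle, a gap of 1.88 on the log2 scale. *Selp* was higher in KO by 1.74 in chow SAT but lower by 0.84 in HFD SAT and by 0.62 in VAT (as labelled), gaps of 2.58 and 2.37. These differences between pairs were not tested, as each pair has 1 library per genotype, and the share of genes past 2-fold (45.2%) was largest in the chow SAT pair.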

How the results depend on the processing

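The calls for *Itgam*, *Vcam1* and *Selp* in VAT over chow SAT held under every scaling, filter and test tried and failed only for *Vcam1* and *Selp* when a VAT library was left out. Counts of calls moved more, and the cause was not tested. With DESeq2 the genes called were 19 (KO over WT), 3319 (any condition), 246 (HFD SAT over chow SAT), 2280 (VAT over chow SAT), 1053 (muscle over chow SAT) and 1253 (muscle over VAT), and of the 9 genes 5, 5, 2 and 3 were called for any condition, VAT over chow SAT, muscle over chow SAT and muscle over VAT. With genes of at least 1 count kept, 29627 genes were tested, not 16971. Of these, 42, 3302, 317, 2100, 971 and 1159 were called in that order. Of the 9 genes 5 (any condition), 1 (HFD SAT over chow SAT), 5 (VAT over chow SAT) and 3 (muscle over VAT) were called. Upper quartile scaling gave 0 genes for KO over WT and 142 for muscle over chow SAT. Without the genotype term, muscle over chow SAT called 338 genes and muscle over VAT 539, with 1 of the 9 (*Selp*). Without the replicate block (tissue and diet), KO over WT called 0 genes *Itgam* turned to 0.12 and *Sele* was 0.073. Within pairs, 1 gene of the 9 passed 2-fold in HFD SAT with library totals or a prior count of 5, and 0 in muscle with library totals. In chow SAT, *Icam1* also passed 2-fold with library totals (1.06) or upper quartile scaling (1.02). *Icam2* fell below it there with the gene length trend removed (−0.77).

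Leaving out libraries or pairs in turn, genes called ranged from 0 to 2 (KO over WT), 529 to 4025 (any condition), 0 to 441 (HFD SAT over chow SAT), 108 to 3510 (VAT over chow SAT), 39 to 1771 (muscle over chow SAT) and 39 to 1264 (muscle over VAT). The highest counts came without the chow SAT KO library, except for KO over WT (without the muscle pair) and muscle over VAT (without the chow SAT WT library). Of the 9 genes, those called ranged from 2 to 6, 0 to 1, 1 to 6, 0 to 3 and 0 to 3 in the last 5 of these. Among differences that did not pass the threshold, several changed sign. For KO over WT, *Icam1* became 0.030 and *Selp* 0.092 with library totals and *Selp* 0.0033 with DESeq2, and leaving out pairs gave −0.39 to 0.24 (*Icam1*), −0.51 to 0.048 (*Icam2*), −0.54 to 0.29 (*Selp*) and −0.31 to 0.060 (*Itgam*), while *Sele* ranged from 0.012 to 1.22. For HFD SAT over chow SAT, *Itgal* was 0.0087 with library totals, and leaving out libraries gave −0.76 to 0.30 (*Icam1*), −1.16 to 0.33 (*Icam2*), −0.11 to 2.73 (*Sele*) and −0.56 to 0.12 (*Itgal*). For muscle over chow SAT, *Icam2* was 0.0435 with DESeq2 size factors, 0.0378 with library totals and 0.0421 with DESeq2, and the ranges were −0.68 to 0.78 (*Icam2*), −0.90 to 0.44 (*Icam1*), −0.18 to 0.76 (*Itgb2*) and −0.18 to 2.71 (*Sele*). For VAT over chow SAT *Icam2* ranged from −0.93 to 0.58, and for muscle over VAT *Icam2* from −0.040 to 0.57, *Itgam* from −0.076 to 0.42 and *Selplg* from −0.32 to 0.018. Library totals moved the median of all genes by 0.30 in HFD SAT over chow SAT, and DESeq2 size factors by 0.24 there and by 0.17 in VAT over chow SAT. Depth was lowest in the HFD SAT WT library, with 59 counts for *Sele* and 103 for *Itgam*.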
